A study of Sus scrofa with 6 samples.

Results

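The albumin gene family of the pig was followed in liver RNA of newborn piglets from sows fed tryptophan on 1 of 2 daily schedules. The family was taken as the 4 genes whose Ensembl identifiers carry the symbols ALB, AFP, AFM and GC, out of 26733 features listed per library, and each symbol matched 1 feature. High-Low sows received feed with 0.39% tryptophan in the morning and 0.13% in the afternoon. 2×Trp sows received feed with 0.26% tryptophan at both meals. Each diet had 3 libraries from Landrace x Yorkshire piglets, and no further treatment is given for either group. By its title, the series looked for hepatic genes behind unwanted effects of tryptophan in the diet. The labels give neither the piglets' sex nor their litters. Separate animals are not stated either, so p-values measure the spread between these samples only, which may be technical.

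The 4 genes encode related carrier proteins that hepatocytes secrete into blood. Serum albumin, the product of ALB, is the main plasma protein after birth and carries fatty acids, bilirubin, hormones and tryptophan. Alpha-fetoprotein, the product of AFP, is its fetal counterpart, made in yolk sac and fetal liver, and in mammals its transcript declines after birth while albumin remains high. Afamin, the product of AFM, binds vitamin E and carries lipid-modified Wnt proteins. GC encodes the vitamin D-binding protein, which transports vitamin D metabolites and captures actin monomers released from damaged cells.

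Values were read as FPKM, fragments scaled to transcript length and library depth. Levels of different genes are set side by side on this per-length scale, although the length used for each gene is not given in the files, so ratios between genes rest on it while their comparison between libraries does not. Their totals ran from 956426 to 1230288 per library. The lowest values of single-exon features stepped in whole multiples, which put the depth behind the values at about 15600000 to 18900000 fragments in High-Low libraries and 13200000 to 18900000 in 2×Trp libraries. At these depths a transcript with 1000 countable bases at the AFM level had 874 to 1492 fragments, a counting error of 2.59% to 3.38%. At the ALB, AFP and GC levels the counting error was below 1% in each library. The liver identity of the samples was checked with hepatocyte markers. The most abundant of them, APOA1, TTR and TF, were all above 1000 FPKM in each of the 6 libraries. AHSG, which encodes the abundant liver protein fetuin-A, was listed at 0 in all 6, which may be a failed estimate. APOB, a further hepatocyte marker named once its values were known, was low and uneven. It had 22.6, 1.37 and 3.82 FPKM in High-Low 1, 2 and 3, and 2.08 to 3.33 FPKM in 2×Trp libraries. The cause of the low APOB values was not tested.

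ALB was the most abundant family member in every library. It was listed at 19600.3, 19795 and 13554 FPKM in High-Low 1, 2 and 3, against 9391, 15282 and 11388 FPKM in 2×Trp 1, 2 and 3. Both High-Low 1 and High-Low 2 lay above all 2×Trp libraries, but High-Low 3 lay below 2×Trp 2, so the groups overlapped. Among all listed features ALB ranked between 6th and 8th in the High-Low libraries and between 12th and 17th in the 2×Trp libraries.

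AFP had 1739, 1999 and 1836 FPKM in High-Low 1, 2 and 3, against 1309, 2243 and 1111 FPKM in 2×Trp 1, 2 and 3. The 3 High-Low values fell inside the range of the 2×Trp values, whose highest library held 2.02 times the lowest. The fetal gene was still among the 161 most abundant features in each of the newborn livers, with its best rank, 88th, in 2×Trp 2.

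GC had 1990 FPKM in High-Low 1, 1631 in High-Low 2 and 1703 in High-Low 3, against 1451, 1654 and 1819 FPKM in 2×Trp 1, 2 and 3. GC was the steadiest member across libraries, with a coefficient of variation of 10.7% over all 6, against 28.7% for ALB, 24.9% for AFP and 17.3% for AFM. Among the 1174 tested genes with a mean at least as high as that of AFM, the median coefficient was 21.2%, and 11.6% of them varied less than GC.

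AFM was much lower, at 76.7, 87.6 and 83.5 FPKM in High-Low 1, 2 and 3, against 61.6, 69.8 and 55.4 FPKM in 2×Trp 1, 2 and 3. Every High-Low library lay above every 2×Trp library, which made AFM the 1 member of 4 whose groups did not overlap. All 3 High-Low values lay above all 3 2×Trp values in 3.06% of the 10901 genes tested, and all 3 lay below in 4.12% of them.

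**Figure D1:**
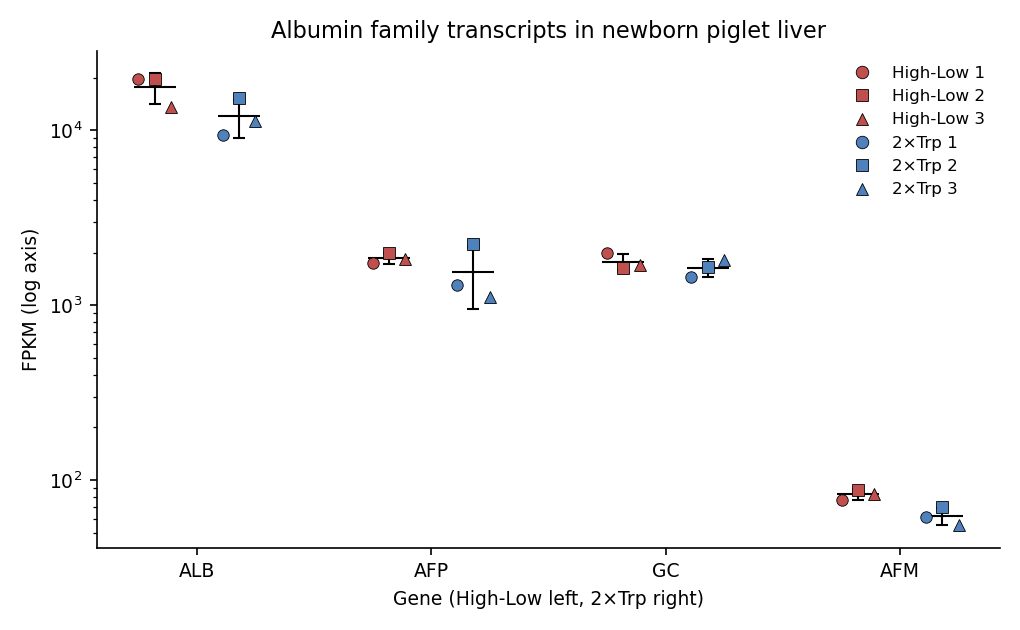
FPKM of ALB, AFP, GC and AFM on a log axis, with 1 point per library, horizontal bars for group means and error bars for the SD (n = 3 each). ALB stands at 9391 to 19795 FPKM, AFP and GC overlap between 1111 and 2243 FPKM, and AFM lies at 55.4 to 87.6 FPKM with the High-Low points above the 2×Trp points.

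The order of the levels was ALB first, then AFP and GC, then AFM, and only AFP and GC did not separate. The lowest ALB value of any library was 9391 FPKM, while the highest AFP value was 2243 FPKM. AFP exceeded GC in 3 of 6 libraries, and the AFP to GC ratio ran from 0.874 to 1.23 in High-Low and from 0.611 to 1.36 in 2×Trp libraries. GC exceeded AFM in 6 of 6 libraries, by 18.6 to 25.9 times in High-Low and 23.5 to 32.9 times in 2×Trp.

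The fetal member relative to the adult member was measured as AFP per ALB inside each library, a ratio that no scaling of whole libraries can change. AFP amounted to 8.87%, 10.1% and 13.5% of ALB in High-Low 1, 2 and 3, against 13.9%, 14.7% and 9.76% in 2×Trp 1, 2 and 3. The groups overlapped at both ends, since High-Low 3 sat near the higher 2×Trp libraries and 2×Trp 3 near the lower High-Low ones. ALB stood 7.38 to 11.3 times above AFP in High-Low livers and 6.81 to 10.2 times above it in 2×Trp livers.

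The mean AFP per ALB was 10.8% ± 2.43 in High-Low and 12.8% ± 2.65 in 2×Trp (SD, n = 3 each). The mean of log2(AFP/ALB) was -3.23 in High-Low and -2.99 in 2×Trp, a difference of -0.24, with SDs of 0.31 and 0.32. This difference did not exceed the spread between libraries (exact permutation test over the 20 assignments of libraries, two-sided, p = 0.4, where 0.1 is the smallest this design allows). Leaving out single libraries moved it from -0.42 without 2×Trp replicate 3 to -0.11 without High-Low replicate 1.

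The other members were set against ALB in the same way, without a test. GC amounted to 10.2%, 8.24% and 12.6% of ALB in High-Low 1, 2 and 3, against 15.4%, 10.8% and 16.0% in 2×Trp 1, 2 and 3. High-Low 1 and High-Low 2 were lower than every 2×Trp library, and High-Low 3 was between 2×Trp 2 and 2×Trp 1. AFM amounted to 0.391%, 0.443% and 0.616% of ALB in High-Low 1, 2 and 3, against 0.656%, 0.456% and 0.486% in 2×Trp 1, 2 and 3, with overlap between the groups.

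**Figure D2:**
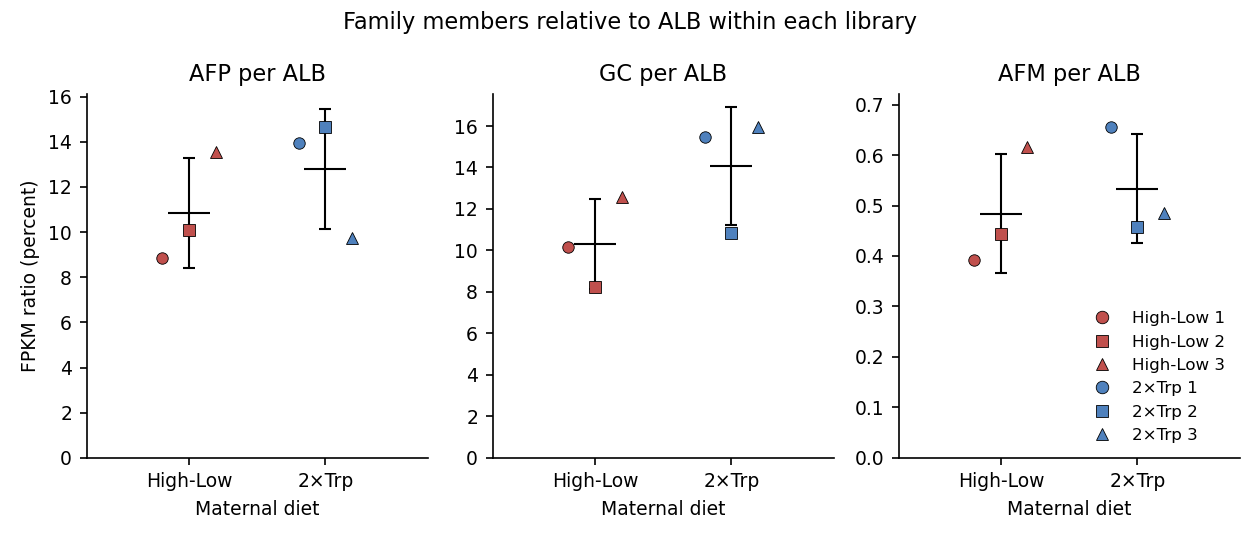
AFP, GC and AFM as a percentage of ALB in FPKM, with 1 point per library, horizontal bars for group means and error bars for the SD (n = 3 each). The groups overlap in all 3 panels, with AFP per ALB at 8.87% to 13.5% in High-Low and 9.76% to 14.7% in 2×Trp.

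AFP was also set against AFM inside each library, without a test. AFP was 22.7, 22.8 and 22.0 times AFM in High-Low 1, 2 and 3, against 21.2, 32.1 and 20.1 times in 2×Trp 1, 2 and 3. The library that stood apart was 2×Trp 2, the one with the highest AFP. Over all 6 libraries the highest AFP to AFM ratio was 1.60 times the lowest. The same spread was 1.65 times for AFP per ALB and 1.68 times for AFM per ALB.

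Composition within the family was dominated by ALB throughout. ALB made up 83.7%, 84.2% and 78.9% of the summed family FPKM in High-Low 1, 2 and 3, against 76.9%, 79.4% and 79.2% in 2×Trp 1, 2 and 3. AFP contributed 7.43% to 10.7% in High-Low and 7.73% to 11.7% in 2×Trp, and GC contributed 6.94% to 9.91% in High-Low and 8.59% to 12.7% in 2×Trp. The AFM part stayed below 1% in all libraries. The family as a whole held 1.96%, 1.91% and 1.80% of the FPKM total in High-Low 1, 2 and 3, against 1.11%, 1.58% and 1.33% in 2×Trp 1, 2 and 3.

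Taken as a share of the FPKM total, ALB no longer overlapped between the diets. It held 1.64%, 1.61% and 1.42% of the total in High-Low 1, 2 and 3, against 0.854%, 1.26% and 1.05% in 2×Trp 1, 2 and 3. The AFM share did not overlap either, while the shares of AFP and GC did. All 3 High-Low shares lay above all 3 2×Trp shares in 2.8% of the genes tested. High-Low 3 had the lowest FPKM total, 956426, and was the High-Low library whose ALB fell below that of 2×Trp 2 before scaling.

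The diets were then compared over all 10901 genes with at least 1 FPKM in 3 or more libraries, using limma on log2(FPKM + 1), and all 4 family members passed this filter. None of the 4 was called at an adjusted p under 0.05, a threshold that 0.00917% of the genes tested passed, and none reached an unadjusted p under 0.05, which 3.16% of genes did. The log2 fold changes of all 4 were above 0, as in 49.5% of genes, and the median over all genes tested was -0.004. In bulk tissue, fewer cells of a type and less RNA per cell cannot be told apart.

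ALB averaged 17650 ± 3549 FPKM in High-Low and 12020 ± 2996 FPKM in 2×Trp (SD, n = 3 each). The fitted log2 fold change of ALB was 0.56 (SE 0.25), with a 95% interval from -0.03 to 1.15 and an adjusted p of 0.998 in limma. As a fold this interval ran from 0.983 to 2.22, so that neither equal levels nor an ALB level 2 times higher in High-Low was excluded. With each library scaled to its FPKM total the log2 fold change was 0.58 and the interval ran from 0.14 to 1.01, with an unadjusted p of 0.0161 but an adjusted p of 0.999 in limma. With array quality weights it was 0.29.

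AFM averaged 82.6 ± 5.52 FPKM in High-Low and 62.3 ± 7.22 FPKM in 2×Trp (SD, n = 3 each). The fitted log2 fold change of AFM was 0.41 (SE 0.18), with a 95% interval from -0.01 to 0.83 and an adjusted p of 0.998 in limma. By unadjusted p, AFM stood 370th and ALB 405th among the genes tested.

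AFP averaged 1858 ± 131 FPKM in High-Low and 1554 ± 604 FPKM in 2×Trp (SD, n = 3 each). The SD in 2×Trp was the larger because 2×Trp 2 lay far above the other 2×Trp libraries. The log2 fold change of AFP was 0.32, with a 95% interval from -0.32 to 0.97 and an adjusted p of 0.998 in limma. It moved to 0.62 without 2×Trp replicate 2 and to 0.11 without 2×Trp replicate 3.

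GC averaged 1775 ± 190 FPKM in High-Low and 1641 ± 184 FPKM in 2×Trp (SD, n = 3 each). For GC the fitted log2 fold change of 0.11 had a 95% interval from -0.31 to 0.53, with an adjusted p of 0.998 in limma. Changes beyond 1.45-fold upward or below 0.809-fold lay outside that interval. The GC value ran from 0.03 without 2×Trp replicate 1 or High-Low replicate 1 to 0.19 without 2×Trp replicate 3, with 0.17 when High-Low replicate 2 was left out and 0.05 under array quality weights. Whether ALB and GC differed from each other in their response to the diets was not tested.

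**Figure D3:**
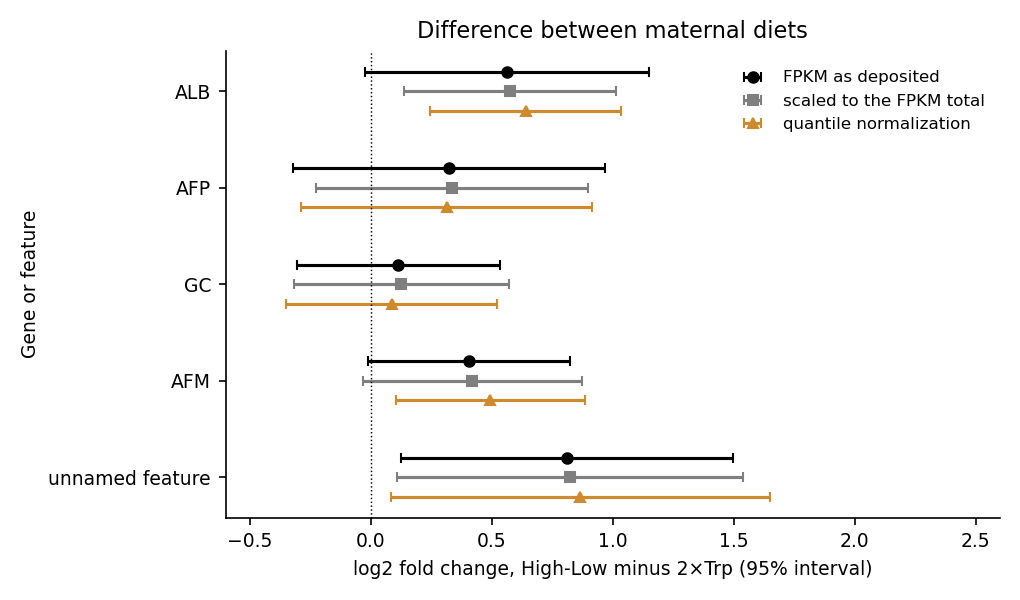
Log2 fold changes, High-Low minus 2×Trp, of the family and of the unnamed feature beside ALB, with 95% intervals from limma for FPKM as deposited, scaled to the FPKM total and quantile normalized. The ALB interval begins at -0.03 as deposited and at 0.14 after scaling to the total, and the AFP and GC intervals span 0 in all 3 settings.

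Markers of other cell types were read in the same libraries, and none of them was called in limma. Erythroid markers, which include HBB of haemoglobin and ALAS2 of haem synthesis, summed to 1818, 7201 and 4412 FPKM in High-Low 1, 2 and 3, against 15895, 6172 and 15374 FPKM in 2×Trp 1, 2 and 3. The groups overlapped, since High-Low 2 lay above 2×Trp 2. Of the 11 markers listed, 8 have an identifier in the symbol table and 6 were tested, all 6 with a log2 fold change below 0 and a median of -0.64, and none was listed at 0 in every library. The 2×Trp 1 and 2×Trp 3 libraries, lowest in ALB and in AFM, were the highest in this sum, which was mostly HBB in every library. HBB stood at 15745 FPKM in 2×Trp 1 and 15187 FPKM in 2×Trp 3. HBM and ALAS2 were also highest in these libraries. Other markers, looked at once their values were known, did not place 2×Trp 1 high. SLC4A1 had 1.67 FPKM there against 4.12 in High-Low 3, and EPOR 2.23 against 3.14. TRIM10, KLF1 and GATA1 were likewise lower in 2×Trp 1 than in High-Low 3. In the remaining 4 libraries the erythroid sum did not order ALB. The part of erythroid RNA in the ALB and AFM differences was not tested.

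Endothelial markers summed to 96.7 to 193 FPKM in High-Low and 164 to 205 FPKM in 2×Trp, with 8 of 8 tested members below 0 and a median log2 fold change of -0.43. Macrophage markers summed to 246 to 444 FPKM in High-Low and 413 to 572 FPKM in 2×Trp, with 4 of 5 tested members below 0 and a median of -0.68. Neutrophil markers summed to 30.2, 98.2 and 36.8 FPKM in High-Low 1, 2 and 3, and to 24.5, 29.2 and 34.8 FPKM in 2×Trp 1, 2 and 3, with 5 of 5 tested members above 0 and a median of 0.62. The sums of these 3 lists overlapped between diets, and High-Low 2 stood apart in the neutrophil list. Lymphocyte markers summed to 8.11 to 11.0 FPKM in High-Low and 12.6 to 18.7 FPKM in 2×Trp, with 2 of 2 tested members below 0 and a median of -0.36. The lymphocyte sums did not overlap between diets, but they were mostly NKG7 in every library. NKG7 and CD79B, the 2 tested members, are named because of their values. NKG7 had 6.14 to 7.51 FPKM in High-Low and 9.47 to 14.2 FPKM in 2×Trp. All 3 High-Low values lay below all 3 2×Trp values in 4.12% of the genes tested. CD79B overlapped, at 0.471 to 2.47 FPKM in High-Low and 0.959 to 1.94 FPKM in 2×Trp. Stellate cell markers summed to 88.6 to 167 FPKM in High-Low and 138 to 182 FPKM in 2×Trp (median -0.15 over 7), and bile duct markers to 16.0 to 19.1 FPKM in High-Low and 18.9 to 23.4 FPKM in 2×Trp (median 0.13 over 3). Hepatocyte markers other than the family summed to 29227 to 45817 FPKM in High-Low and 32994 to 44638 FPKM in 2×Trp, with 5 tested members above 0, 3 below and a median of 0.09. The part of these cell types in the family's values was not tested. Mitochondrially encoded features held 5.83% to 10.0% of the FPKM total in High-Low and 3.48% to 5.20% in 2×Trp, and their part in the shares of the family was not tested.

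**Figure D4:**
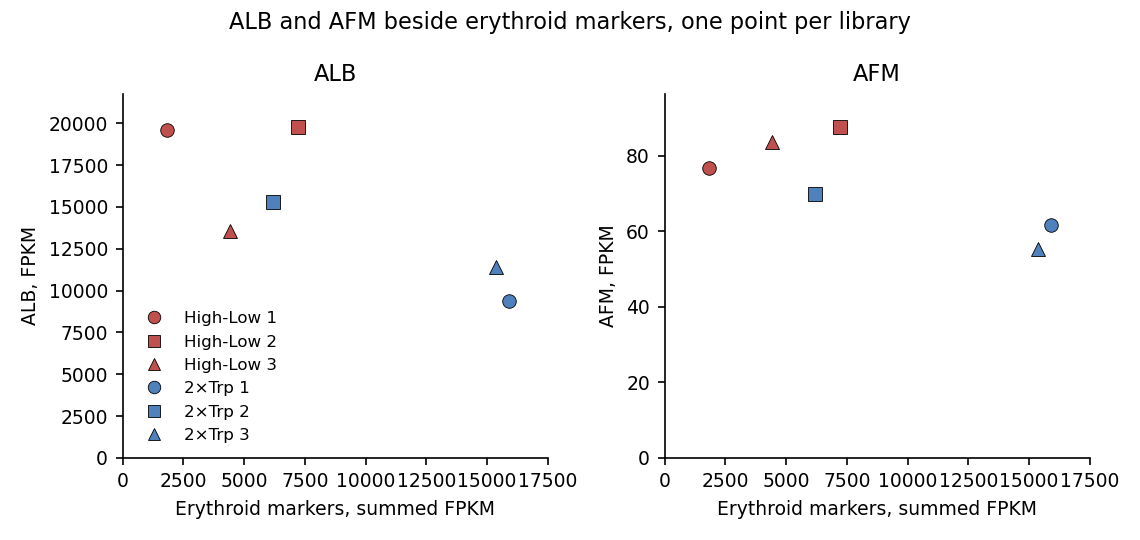
ALB (left) and AFM (right) in FPKM against the summed FPKM of the erythroid markers, which is mostly HBB, with 1 point per library. The 2×Trp 1 and 2×Trp 3 libraries have sums of 15895 and 15374 FPKM and the lowest ALB and AFM, and the other 4 libraries have sums from 1818 to 7201 FPKM.

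On the susScr3 assembly all 4 genes are listed on chromosome 8. GC (ENSSSCG00000027609) lies on the minus strand at 72236439 to 72252212 and ALB (ENSSSCG00000008948) on the minus strand at 73610470 to 73630121. AFP (ENSSSCG00000008949) lies on the plus strand at 73777775 to 73798926, and AFM (ENSSSCG00000008950) follows it on the plus strand at 73806956 to 73828345, with 8029 bases between them. The length column gives 224 bases for ALB, AFP and AFM alike and 212 for GC, far below their spans of 15774 to 21390 bases. Features listed at 224 bases reached values as low as 0.0287 FPKM, while 1 fragment over 224 countable bases would be worth 0.237 FPKM even in the deepest library, so the listed length was not the one behind the values.

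Between GC and AFM the files list 11 other features, of which 8 were below 1 FPKM in every library. The neighbours NPFFR2, which encodes a neuropeptide receptor and follows GC, and SLC4A4, a bicarbonate transporter gene on the other side of GC, reached at most 0.0742 and 0.728 FPKM. ANKRD17, an ankyrin repeat gene ahead of ALB, averaged 3.97 FPKM in High-Low and 3.61 FPKM in 2×Trp. Of the 3 that averaged 1 FPKM or more, COX18 and ANKRD17 stayed below 5 FPKM in all libraries, and the third is an unnamed feature between ALB and AFP.

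That feature, ENSSSCG00000030845 on the plus strand at 73714622 to 73721804, has no symbol in the table used. It had 582, 290 and 521 FPKM in High-Low 1, 2 and 3, against 259, 291 and 215 FPKM in 2×Trp 1, 2 and 3. High-Low 1 and High-Low 3 lay well above all 2×Trp libraries, and High-Low 2 level with the highest of them. It was 2.97%, 1.46% and 3.84% of ALB in High-Low 1, 2 and 3, against 2.76%, 1.90% and 1.89% in 2×Trp 1, 2 and 3, so it kept no fixed proportion to ALB.

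The log2 fold change of the unnamed feature was 0.81 (95% interval 0.13 to 1.50), with an unadjusted p of 0.0264 and an adjusted p of 0.998 in limma. Without High-Low replicate 2 it was 1.12, and without High-Low replicate 1 it was 0.62. The RefSeq table of the later assembly Sscrofa11.1 lists 0 genes between ALB and AFP, against the 1 feature in the files. The sources used here do not give how reads matching both ALB and this feature were counted, so the values of both are uncertain to that extent. Whether the feature is a gene of its own or a piece of ALB in this assembly was not tested, and in the second case part of the ALB signal would be listed under it.

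Factors known to act on the albumin locus were examined as a list of 18 genes, of which 13 were tested. None was called in limma, 10 had a log2 fold change above 0 and 3 below, and the median was 0.17. CEBPA, a leucine zipper factor of the mature hepatocyte, had 91.9 ± 27.0 FPKM in High-Low and 77.8 ± 21.2 in 2×Trp (SD, n = 3 each). The forkhead factor FOXA2 had 66.2 ± 7.73 in High-Low and 75.4 ± 17.1 in 2×Trp, and FOXA3 had 63.7 ± 17.9 in High-Low and 64.1 ± 16.5 in 2×Trp.

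In 3 of the 13 factors all High-Low libraries lay above all 2×Trp libraries, which 3.06% of genes did. Of these, 2 are described, chosen because of their values. NR5A2, a nuclear receptor that activates AFP, had 13.0, 10.6 and 11.2 FPKM in High-Low 1, 2 and 3, against 8.30, 10.3 and 9.38 FPKM in 2×Trp 1, 2 and 3. ONECUT1, a factor of liver and bile duct development, had 5.28, 2.01 and 2.46 FPKM in High-Low 1, 2 and 3, against 0.642, 1.46 and 1.56 FPKM in 2×Trp 1, 2 and 3. Each had an adjusted p of 0.998 in limma.

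Factors known from mouse to lower AFP gave 5 tested members of 6. None was called, and 1 had a log2 fold change above 0 and 4 below, with a median of -0.05. The nuclear receptor NR2F1 had 26.1 ± 4.36 FPKM in High-Low and 25.9 ± 4.63 in 2×Trp (SD, n = 3 each). NR2F2, a related receptor, had 7.83 ± 1.93 FPKM in High-Low and 8.70 ± 0.261 in 2×Trp. ZHX2, a zinc finger and homeobox repressor singled out once its values were known, had 3.16, 3.59 and 3.26 FPKM in High-Low 1, 2 and 3, against 6.81, 6.51 and 2.77 FPKM in 2×Trp 1, 2 and 3. Among the 2×Trp libraries ZHX2 was highest in 2×Trp 1 and AFP in 2×Trp 2, and both were lowest in 2×Trp 3. A link between ZHX2 and AFP was not tested.

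The other fetal liver genes that could be tested did not share a direction. All but GPC3 were low, with the next most abundant, IGF2BP1, averaging 6.73 FPKM over all libraries, and the pseudocount understates changes of low genes. Of 13 listed, 6 have an identifier in the symbol table and 4 were tested, 2 with a log2 fold change above 0 and 2 below, with a median of 0.03. GPC3, a fetal cell-surface proteoglycan that like AFP reappears in liver cancer, had 2202, 1356 and 1539 FPKM in High-Low 1, 2 and 3, against 2343, 1705 and 2103 FPKM in 2×Trp 1, 2 and 3. The range of GPC3 overlapped that of AFP, and it was lowest in High-Low 2, where AFP was at its High-Low maximum. IGF2BP1, a fetal RNA-binding protein, had 7.43 ± 0.560 FPKM in High-Low and 6.02 ± 0.849 in 2×Trp, and PEG3, an imprinted gene, had 2.86 ± 0.543 in High-Low and 2.29 ± 0.863 in 2×Trp (SD, n = 3 each).

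Hepatocyte enzymes that come up around or after birth were set beside ALB as the mature side of the comparison. Of 18 listed, 11 were tested and none was called, with 6 above 0, 5 below and a median of 0.04. CYP2E1 had 733 ± 173 FPKM in High-Low and 608 ± 318 in 2×Trp, and HPD of tyrosine breakdown had 381 ± 265 in High-Low and 491 ± 145 in 2×Trp (SD, n = 3 each). PCK1 of glucose synthesis had 401 ± 75.0 FPKM in High-Low and 400.1 ± 127 in 2×Trp.

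Genes that handle the family's proteins and ligands were described from 4 further lists, and none of their tested members was called. FCGRT, the receptor that rescues albumin from degradation, had 418 ± 96.3 FPKM in High-Low and 459 ± 26.8 in 2×Trp (SD, n = 3 each), and the 4 tested genes of albumin recycling and uptake had a median log2 fold change of 0.04. DHCR7, which consumes the precursor of vitamin D, was the 1 tested gene of 8 on the GC ligand list, at 103 ± 46.7 FPKM in High-Low and 120 ± 39.0 in 2×Trp. For vitamin E, the lipoprotein receptor SCARB1 had 68.8 ± 7.33 FPKM in High-Low and 69.5 ± 9.59 in 2×Trp, and the 2 tested genes had a median of -0.08. Along the secretory route 14 genes were tested, 7 above 0 and 7 below with a median of -0.003, led in abundance by the translocon subunit SSR4 at 1430.1 ± 275 FPKM in High-Low and 1446 ± 213 in 2×Trp.

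**Figure D5:**
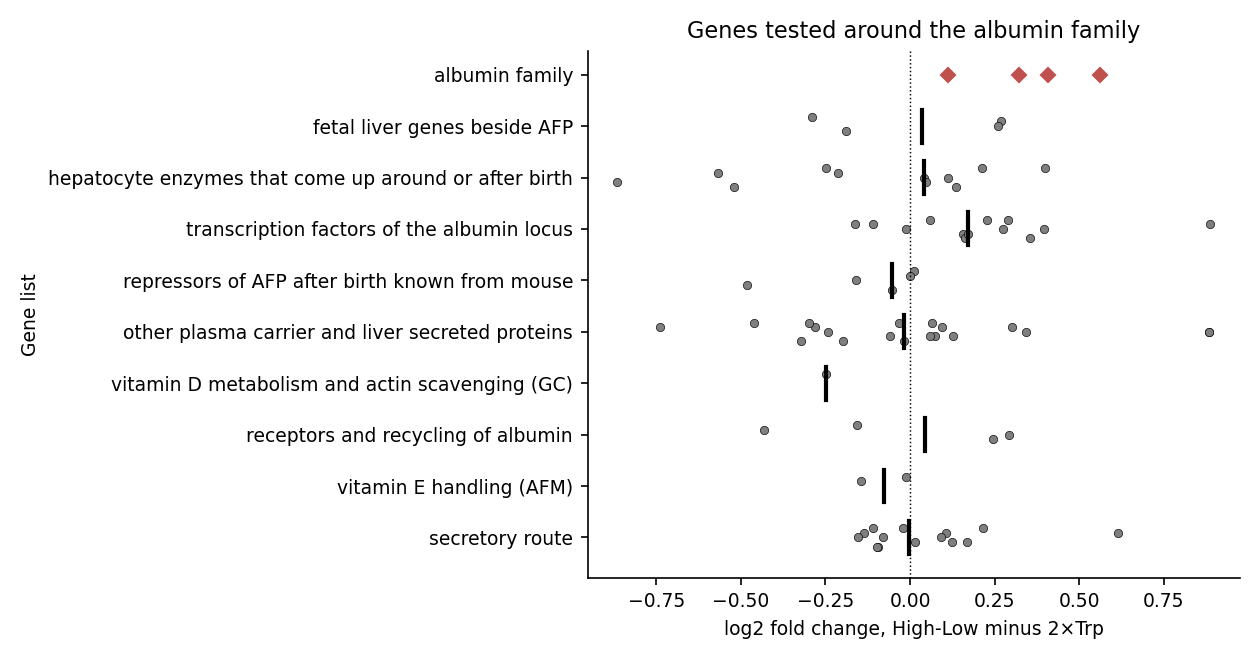
Log2 fold changes, High-Low minus 2×Trp, of the tested genes of each list, with 1 point per gene and a black bar at the median of the list, and the 4 family members as diamonds in the top row. The family lies between 0.11 and 0.56, and the list medians lie between -0.25 and 0.17.

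The genes most like each member across the 6 libraries were found by Pearson's r of log2(FPKM + 1) among the tested genes with a symbol. These values are descriptive, since they rest on 6 points, were the highest among 6532 genes, and all genes of a library share its depth and cell mixture. ALB was followed most closely by the myosin light chain gene MYL12A (r of 0.985), EMC3 (0.982) and the fatty acid transporter gene SLC27A1 (0.982). For AFP they were ZMAT5 (0.973), SERPINA7 (0.971) and FNBP4 (0.969), for AFM WDR73 (0.980), the sphingomyelinase gene SMPD3 (0.975) and INVS (0.963), and for GC BOD1L1 (0.997), HNRNPK (0.993) and MEF2A (0.991).

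SERPINA7, which encodes thyroxine-binding globulin, was the 1 plasma carrier among these 12 genes. It had 70.4, 68.5 and 72.4 FPKM in High-Low 1, 2 and 3, against 51.4, 78.8 and 45.6 FPKM in 2×Trp 1, 2 and 3. As with AFP, the 3 High-Low values lay inside the range of the 2×Trp values, with 2×Trp 2 highest and 2×Trp 3 lowest. SERPINA7 was chosen for its likeness to AFP, so this shared order is no separate result.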

How the data were processed

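Frozen newborn liver was extracted with Trizol and made into libraries with a TruSeq RNA kit, per the labels' protocols. Per the submitters' processing notes, the tools were HTSeq 0.6.1, TopHat2 2.0.12 and Bowtie2 2.2.3, with susScr3 as the genome. Neither the source of the FPKM nor the annotation or strandedness is given in the sources used here. Each library has 1 deposited table, without a unit in its header. The deposited values were taken as FPKM for their fractional values and unequal totals. In single-exon features of 500 to 3000 bases, 98.5% to 100% of values worth up to 4 fragments were whole within 0.03, after subtracting 235 to 255 bases from the length, which gave the depths. Counting errors derived from them cover counting only. The deposited length column, in bases, entered this depth estimate, for single-exon features, and 1 alternative of AFP per ALB. In that alternative it could not change the difference between diets, since a gene's listed length is the same in every library.

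A table pairing Ensembl identifiers with symbols named 11804 of 25322 features. Genes were tested with limma 3.58.1 in R 4.3.3 on log2(FPKM + 1), High-Low minus 2×Trp, with a variance trend, robust estimation and Benjamini-Hochberg adjustment over all genes tested at a threshold of 0.05; the pseudocount understates changes of low genes. The fit was also run on simulated data with planted changes far larger than those of the 4 members. That run does not show how well changes of the members' size are found. AFP per ALB was compared by an exact permutation test. The members and lists were chosen with earlier results of these data known. Named genes are the members, their chromosomal neighbours, up to 3 of the most abundant genes of each list, the 3 most similar to each member and those said to be named after their values were seen. Protein and promoter sequences were not used here. Plots were made in Python 3.11.15 with matplotlib 3.10.9. Some genes of the lists are not reported here by name.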

Additional observations from a re-analysis of the deposited data

How the results depend on the processing

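The log2 fold changes of ALB, AFP, AFM and GC stayed above 0 and short of an adjusted p of 0.05 in limma under all 17 alternatives, which were another pseudocount, other filters, scalings and variance settings, array quality weights, the replicate block and leaving out each library. They ran from 0.29 (array quality weights) to 0.75 for ALB, 0.11 to 0.62 for AFP, 0.33 to 0.49 for AFM and 0.03 to 0.19 for GC. Unadjusted p-values for ALB were 0.0581 as deposited, 0.0161 scaled to the FPKM total and 0.00641 with quantile normalization. The AFP per ALB difference ran from -0.42 to -0.11 without single replicates, and as AFP percent of AFP plus ALB it was -1.56 percentage points (exact permutation p = 0.3). With the replicate block, a sign-flip of the paired differences gave the same -0.24 (exact p = 0.5, smallest possible 0.25). The labels do not say whether the replicate numbers pair the libraries. Correlations of same-numbered deviations were -0.22, -0.01 and 0.03, against -0.13 to 0.12 for unlike numbers. With 3 libraries per diet these values cannot exclude a shared litter or batch. The block left 1 gene higher and 0 lower. Over all genes 1 was higher and 0 lower; leaving out single replicates gave 1 to 2 higher, 2 of them without 2×Trp replicate 3. The count lower was 1 with scaling to the FPKM total, with or without mitochondrial features or the 20 most abundant genes, with quantile normalization and with array quality weights; the cause was not tested. For the 4 members the spread between libraries was larger than the counting error of at most 3.38%; for genes near 1 FPKM counting error was not worked out.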

Other observations

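Other secreted liver proteins did not share one direction with the family. Of 24 listed, 20 have an identifier in the symbol table and 19 were tested, 9 with a log2 fold change above 0 and 10 below, with a median of -0.02 and none called in limma. APOA1, the main protein of high-density lipoprotein, exceeded ALB in 5 of 6 libraries, all but High-Low 1, at 16263, 19960.4 and 18027 FPKM in High-Low 1, 2 and 3, against 31095, 23726 and 20661 FPKM in 2×Trp 1, 2 and 3. All 3 High-Low values lay below all 3 2×Trp values, as in 4.12% of genes tested. AMBP, the precursor of alpha-1-microglobulin and bikunin, averaged 7378 ± 2138 FPKM in High-Low and 8800 ± 1396 in 2×Trp (SD, n = 3 each). TF, which encodes the iron carrier transferrin, had 9420.1, 16829 and 3490 FPKM in High-Low 1, 2 and 3. In 2×Trp 1, 2 and 3 it had 3870, 12410 and 1832 FPKM. The highest TF library in each diet was replicate 2, as for ALB, AFP, AFM and AMBP but not for GC or APOA1. Replicate 2 also had the highest FPKM total in each diet, 1230288 in High-Low and 1215059 in 2×Trp.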
